A study of Mus musculus with 5 samples.

Results

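Parathyroid hormone (PTH) receptor signalling was examined through 9 genes, chosen by name from the deposited count file: the ligand gene Pthlh, the receptor gene Pth1r, the G protein gene Gnas, the phosphodiesterase genes Pde4b and Pde4d, and Rgs2, Crem, Mef2c and Sost, which act or respond downstream. The file listed 30046 features. Of the 9 genes, 8 had a row and 7 passed the filter on low values, while Pthlh was too low and Sost was not analysed here. The set was selected on the rise of Pth1r in this same comparison, so the values of the 9 genes are given as a description and carry no test. The question was whether the higher receptor mRNA came with its signalling partners and targets.

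The libraries were bulk RNA-seq of marrow stromal cells at postnatal day 21, sorted from mouse femurs as cells bright for a GFP knocked into Cxcl12 and positive for tdTomato. All mice carried Cxcl12 GFP/+ and one copy of the R26R tdTomato reporter, and all had been pulsed with tamoxifen at embryonic day 12.5. The groups differed in the Cre driver: Dlx5CE-E12.5 cells (3 libraries) descended from fetal cells with active Dlx5-creER, which marks the perichondrium, and Fgfr3CE-E12.5 cells (2 libraries) from cells with active Fgfr3-creER, which marks fetal chondrocytes. Cells of littermates were pooled by genotype. A figure legend of the study gives a number of pooled mice for each lineage, without saying how they were divided among the libraries. The p-values measure only the spread between these pools. In such bulk samples fewer cells of a type and less RNA per cell cannot be told apart, and the study's methods name a different sequencer and read length for each lineage, where the deposited design description names a single sequencer. If the methods hold, neither can be told apart from the lineage.

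PTH and PTH-related protein (PTHrP, from Pthlh) bind the same receptor on osteoblasts, stromal cells and chondrocytes. The receptor activates the stimulatory G protein alpha subunit from Gnas, adenylyl cyclases then make cAMP, and cAMP releases the catalytic subunits of protein kinase A (PKA), which phosphorylate CREB at cAMP response elements and also inactivate salt-inducible kinases, so that class II histone deacetylases and CRTC coactivators move and Mef2 activity changes. Phosphodiesterases, RGS proteins and the CREM repressor limit the signal, and PTH lowers Sost, an osteocyte inhibitor of Wnt signalling whose enhancer binds Mef2c.

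The promoter windows of 4 of the genes are shown because they carry the short element through which CREB acts. Each is the RefSeq sequence on GRCm38.p6 from 250 bases before to 50 bases after an annotated start, read 5′ to 3′ on the strand of the gene, with short sites (TGACG, or CGTCA on the other strand) in capitals. The full element, TGACGTCA, contains the short site on both strands.

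Rgs2, chr1:144004100-144004399, minus strand: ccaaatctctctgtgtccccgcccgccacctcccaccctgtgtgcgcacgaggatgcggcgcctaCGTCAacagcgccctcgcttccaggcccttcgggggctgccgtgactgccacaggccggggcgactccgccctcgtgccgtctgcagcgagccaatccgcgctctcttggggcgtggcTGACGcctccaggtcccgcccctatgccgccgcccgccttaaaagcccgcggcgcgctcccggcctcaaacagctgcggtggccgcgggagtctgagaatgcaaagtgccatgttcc
Pth1r, chr9:110747096-110747395, minus strand: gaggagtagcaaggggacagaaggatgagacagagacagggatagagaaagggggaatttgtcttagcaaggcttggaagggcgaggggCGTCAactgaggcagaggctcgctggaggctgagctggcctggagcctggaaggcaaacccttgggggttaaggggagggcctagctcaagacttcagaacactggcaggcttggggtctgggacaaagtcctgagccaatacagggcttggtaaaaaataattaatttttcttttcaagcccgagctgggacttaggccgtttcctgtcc
Gnas, chr2:174329756-174330055, plus strand: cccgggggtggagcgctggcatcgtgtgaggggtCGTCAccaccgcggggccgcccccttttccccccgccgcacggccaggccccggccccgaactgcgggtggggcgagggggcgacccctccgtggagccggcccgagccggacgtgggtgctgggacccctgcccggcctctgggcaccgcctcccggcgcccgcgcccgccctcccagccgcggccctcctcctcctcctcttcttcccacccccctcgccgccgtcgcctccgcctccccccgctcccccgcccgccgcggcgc
Pde4b, chr4:102421305-102421604, plus strand: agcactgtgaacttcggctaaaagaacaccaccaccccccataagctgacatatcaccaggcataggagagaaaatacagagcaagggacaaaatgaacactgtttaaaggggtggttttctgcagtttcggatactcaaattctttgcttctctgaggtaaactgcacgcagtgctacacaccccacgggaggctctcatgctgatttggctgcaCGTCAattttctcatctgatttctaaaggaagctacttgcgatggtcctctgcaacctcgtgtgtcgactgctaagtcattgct

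Rgs2 held 2 short sites, the first bases of which lay at -185 and -67 from the start. Pth1r held 1 at -161 in this window and none in its other windows, Gnas 1 at -216, and Pde4b 1 at -34. A short site also lay in 2 other windows of Gnas, which overlap each other, at -38 and -57 from their starts. No window was matched for Crem, and those of Pthlh, Pde4d and Mef2c had no short site. Promoter windows were matched for 8 of the 9 genes, 5 of which had a short site in any window, and none had the full element. Over all 27025 genes in the table, 23.0% had a short site and 2.03% the full element. Those genes had 32851 windows in all, of which 20.8% held a short site. The 8 genes had 1 to 4 windows each, and a gene with more windows has more chances of a site. A match describes these letters in this window and does not show binding.

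Among genes known to be induced by PTH or cAMP, the short site was found in 16 of 23 genes with a window and the full element in 2, Dusp1 and Areg. Prkar1a, from the list of PKA genes, also held it and encodes a regulatory subunit of PKA. The elements of the pair with enough counts to be tested are shown with 11 bases on each side, the full element in capitals.

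Dusp1, chr17:26508597-26508626, minus strand: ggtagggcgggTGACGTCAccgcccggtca
Prkar1a, chr11:109650889-109650918, plus strand: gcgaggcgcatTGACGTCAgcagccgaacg

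The receptor and its G protein were both higher in Fgfr3CE-E12.5 cells, and the feedback and target genes among the members were not. Pth1r was 10.3-fold and Gnas 5.45-fold higher, Crem and Mef2c lay near a log2 fold change of 0, and Pde4b, Pde4d and Rgs2 had lower means. Calls were made at an adjusted p under 0.05 with an absolute log2 fold change over 1. By that rule 2 of the 7 genes fitted were higher in Fgfr3CE-E12.5 cells, as were 16.4% of the 10093 genes in the fit, and 1 was higher in Dlx5CE-E12.5 cells, as were 13.1%. In all, 3 of 7 were called, and 29.5% of the whole table. Because this contrast chose the genes, nothing is read from these shares.

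Pthlh encodes the paracrine ligand PTHrP. Its counts were 33, 36 and 22 in Dlx5CE-E12.5 cells and 33 and 26 in the deeper Fgfr3CE-E12.5 libraries. As normalized CPM, the count as a share of its library corrected for composition, that was 1.28 ± 0.450 (s.d., n = 3) against 0.498 ± 0.0938 (n = 2). Both Fgfr3CE-E12.5 values lay below all Dlx5CE-E12.5 values, at a level that did not pass the filter on low values. With the lower filter the log2 fold change was -1.37 with a standard error of 0.61.

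Pth1r (chromosome 9, 110722085 to 110747145, minus strand, GRCm38) encodes the receptor for PTH and PTHrP. Its counts were 1074, 946 and 1030 in Dlx5CE-E12.5 cells and 26615 and 25108 in Fgfr3CE-E12.5 cells. Normalized CPM was 36.9, 46.9 and 43.1 against 455 and 417, a mean of 42.3 ± 5.06 (s.d., n = 3) against 436 ± 27.1 (n = 2). The groups lay far apart, and neither Fgfr3CE-E12.5 library stood out, their ratio being 1.09. The log2 fold change was 3.37 with a standard error of 0.16, a description only, since the set was selected on this rise. Leaving out each library in turn gave values from 3.27 to 3.49. The exons of Pth1r overlapped those of Myl3, on the opposite strand, over 3.25% of their length, and Myl3 itself had 2 to 46 counts per library.

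Gnas (chromosome 2, 174284320 to 174346744, plus strand) encodes the stimulatory G protein alpha subunit from an imprinted locus with several first exons, which the count file sums as one gene. Its normalized CPM was 195, 190 and 236 in Dlx5CE-E12.5 cells and 1160 and 1096 in Fgfr3CE-E12.5 cells. The groups did not overlap, and the spread within each was small beside the difference. The mean was 207 ± 25.2 (s.d., n = 3) against 1128 ± 44.9 (n = 2), a log2 fold change of 2.45 with a standard error of 0.16. Of its exonic length 22% overlapped Nespas and Gm20721 on the opposite strand. The strand setting of the counting is not given in the sources used here, so reads of these partners may not be told apart there. Nespas had 8 to 32 counts per library and Gm20721 had 5 to 212, beside 3840 to 67825 for Gnas.

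Pde4b and Pde4d encode cAMP-specific phosphodiesterases that PKA and CREB activity are known to raise as feedback. Normalized CPM of Pde4b was 109, 55.0 and 68.3 in Dlx5CE-E12.5 cells and 60.4 and 40.3 in Fgfr3CE-E12.5 cells. The groups overlapped, and Dlx5 replicate 1 was the highest library. Its log2 fold change was -0.62 with a standard error of 0.32 and a 95% interval of -1.38 to 0.13. Pde4d had 30.6, 20.7 and 19.96 against 11.5 and 10.8. Both Fgfr3CE-E12.5 libraries lay below all 3 Dlx5CE-E12.5 libraries, among which replicate 1 was again the highest. The log2 fold change of Pde4d was -1.09 with a standard error of 0.25, and without Dlx5 replicate 1 it was -0.86, without Fgfr3 replicate 3 -0.98, in both of which it no longer passed the rule.

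Rgs2 encodes a regulator that speeds the shut-off of G protein alpha subunits and is a known early response gene of PTH in bone cells. Its normalized CPM was 189, 228 and 284 in Dlx5CE-E12.5 cells and 216 and 128 in Fgfr3CE-E12.5 cells. The groups overlapped, with Fgfr3 replicate 2 inside the range of the Dlx5CE-E12.5 libraries and replicate 3 below it. The log2 fold change was -0.44 with a standard error of 0.27 and a 95% interval of -1.07 to 0.19. Crem, on chromosome 18, encodes cAMP-responsive activators and repressors, and the count sums them, including the short repressor ICER that starts inside the gene. Crem had 18.9, 18.7 and 16.6 against 17.1 and 15.0 normalized CPM. These ranges overlapped, and the log2 fold change was -0.17 with a standard error of 0.19 and a 95% interval of -0.63 to 0.28, and it turned to 0.0084 when scaled by library size only. Gm6225, on the opposite strand, shares 8.01% of the exonic length of Crem and had 97 to 166 counts in Dlx5CE-E12.5 cells and 24 and 36 in Fgfr3CE-E12.5 cells, beside 378 to 1000 for Crem.

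Mef2c encodes the transcription factor at the Sost enhancer. It had 70.7, 67.1 and 61.6 normalized CPM in Dlx5CE-E12.5 cells and 77.2 and 59.7 in Fgfr3CE-E12.5 cells. The Fgfr3CE-E12.5 libraries lay on either side of the Dlx5CE-E12.5 range. Its log2 fold change was 0.04 with a standard error of 0.16 and a 95% interval of -0.34 to 0.42, near the median of 0.01 over all genes. The value was 0.69 when the trend of each library on gene length was removed.

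**Figure D1:**
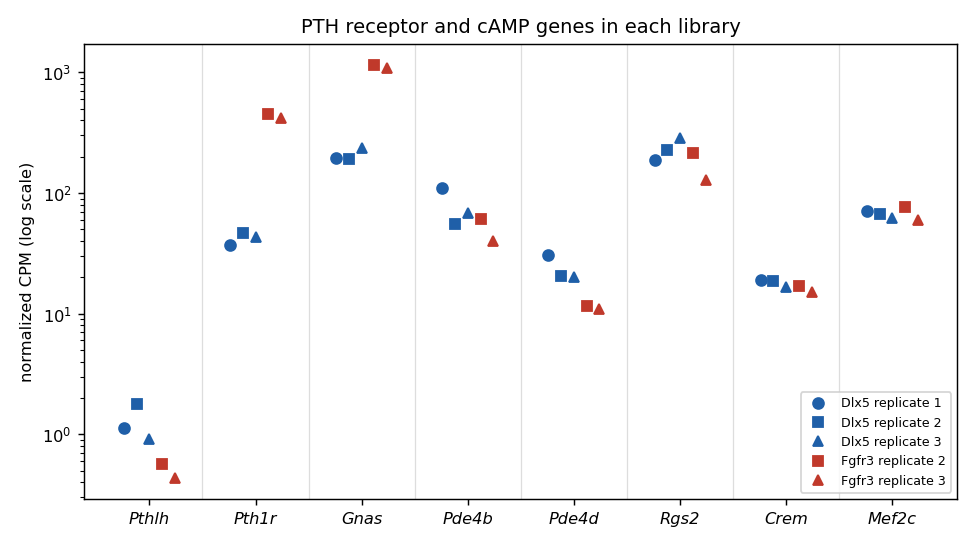
Normalized CPM (log scale) of the 8 genes with a row in each library, Dlx5CE-E12.5 in blue and Fgfr3CE-E12.5 in red, 1 point per library with the replicate number as shape. Both red points lie above all blue points for Pth1r and Gnas, below them for Pthlh and Pde4d, and within or beside their range for the other genes.

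All libraries of one group lay above all of the other for Pth1r and Gnas, where 34.8% of all genes did so in that direction, and below for Pde4d, where 34.1% did. In each of the 7 genes Fgfr3 replicate 2 was higher than replicate 3, as it was in 51.5% of all genes. The ratio was 1.06 for Gnas and Pde4d, 1.09 for Pth1r, 1.14 for Crem, 1.29 for Mef2c, 1.5 for Pde4b and 1.69 for Rgs2. Pde4b and Rgs2, which differed most between the Fgfr3CE-E12.5 libraries, overlapped between the lineages.

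Levels of different genes were compared as normalized CPM per kilobase of exon. In Dlx5CE-E12.5 cells Rgs2 was the highest member at 64.5 ± 13.2 (s.d., n = 3), followed by Gnas at 18.5 ± 2.25 and Pth1r at 14.5 ± 1.73. The ranges of Gnas (17.0 to 21.1) and Pth1r (12.6 to 16.0) did not overlap but were close. In Fgfr3CE-E12.5 cells Pth1r led at 149 ± 9.25 (n = 2), then Gnas at 101 ± 4.01 and Rgs2 at 47.5 ± 17.1. Pde4b, Mef2c, Crem, Pde4d and Pthlh followed in this order in every library. Neighbours Pde4b and Mef2c overlapped in Fgfr3CE-E12.5 cells (4.77 ± 1.34 against 4.36 ± 0.789), and those of Dlx5CE-E12.5 cells stood at 7.34 ± 2.68 and 4.23 ± 0.292. The exonic length joins all isoforms, which understates the level of a gene with long alternative exons such as Gnas.

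The genes whose pattern over the 5 libraries was most like that of Pth1r were sought among 10087 genes, by the root mean square of the differences in log2 CPM after centring each gene. The 5 nearest were Rragc (0.0656), Ppp3cc (0.109), Dirc2 (0.127), Shf (0.129) and Smad6 (0.136), in log2 units. Gnas was at rank 218 with 0.468. The other members ranked between 4853, Mef2c, and 8865, Pde4d, where the median over all genes was 1.65. Rragc, a GTPase of the amino acid sensing arm of mTORC1, had 11.4, 16.3 and 13.7 against 143 and 144 normalized CPM. Smad6, an inhibitor of BMP signalling, had 18.3, 23.0 and 19.5 against 274 and 229. The measure largely restates the difference between the lineages: the 5 nearest genes had log2 fold changes of 3.19 to 3.97, beside 3.37 for Pth1r. Ppp3cc, Dirc2 and Shf passed the filter only through Fgfr3CE-E12.5 libraries. These are descriptions of likeness over 5 libraries and do not show shared regulation.

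The rest of the pathway was taken from 8 lists of 132 genes, 130 of which had a row and 97 were tested. In this larger set 21 were higher in Fgfr3CE-E12.5 cells, 30 were higher in Dlx5CE-E12.5 cells and 46 were not called, with a median log2 fold change of -0.21 where the median of all genes was 0.01. Over all genes tested, 16.4% were higher in Fgfr3CE-E12.5 cells and 13.1% in Dlx5CE-E12.5 cells, the shares beside which the counts of each list below stand. The adjusted p-values below come from edgeR's quasi-likelihood test over all genes tested. The lists were chosen with earlier results of these data known, so their counts are a description.

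Among other receptors that couple to the same G protein, and the RAMP partners of some of them, 8 of 17 genes were tested. Of these 6 were higher in Dlx5CE-E12.5 cells, 1 was higher in Fgfr3CE-E12.5 cells and 1 was not called, with a median log2 fold change of -1.75. The filter bears on this pattern, since Adrb3, Adora2a, Vipr2 and Ramp2 reached it only through Dlx5CE-E12.5 libraries and Ramp1 only through Fgfr3CE-E12.5 libraries. With no filter on low counts the median of all 17 was -0.21, and 7 and 1 were called in these directions. Adora2a, an adenosine receptor, had 17.1 to 18.9 normalized CPM against 2.41 and 3.98, a log2 fold change of -2.49 (SE 0.30, adjusted p = 0.000745). The groups did not overlap. Adrb3, the adrenergic receptor of fat cells, had 13.2 to 20.2 against 1.49 and 0.249, a log2 fold change of -4.33 (SE 0.72, adjusted p = 0.00274), and 24.9% of its exonic length overlapped Gm45470. Ramp1, a partner of the calcitonin receptor-like receptor, was the exception with 4.48 to 7.24 against 16.0 and 33.3, a log2 fold change of 1.98 (SE 0.37, adjusted p = 0.0045). Its higher Fgfr3CE-E12.5 library was replicate 3, and it did not pass the filter when either Fgfr3CE-E12.5 library was left out. Ptger4, a prostaglandin E2 receptor, overlapped between groups and had a log2 fold change of -0.21 (SE 0.24, adjusted p = 0.513).

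Of the other G protein subunits, arrestins and receptor kinases, 22 of 23 were tested, with 9 higher in Fgfr3CE-E12.5 cells, 2 higher in Dlx5CE-E12.5 cells and 11 not called (median 0.19). Among the called genes, Gng2 reached the filter only through Fgfr3CE-E12.5 libraries and Grk5 only through Dlx5CE-E12.5 libraries. Gna12, an alpha subunit of another class, had 24.2, 24.3 and 18.9 against 220 and 184 normalized CPM, a log2 fold change of 3.17 (SE 0.17, adjusted p = 4.24e-05). Gnai2, an inhibitory alpha subunit, had 55.9 to 60.9 against 299 and 547, a log2 fold change of 2.85 (SE 0.25, adjusted p = 0.000216). Grk6, a receptor kinase, had 19.2 to 22.6 against 135 and 237, a log2 fold change of 3.14 (SE 0.24, adjusted p = 0.000135). The last 2 were higher in Fgfr3 replicate 3 than in replicate 2 (ratios of replicate 2 to 3 of 0.547 and 0.571), unlike Gnas and Gna12. Gnaq, the alpha subunit of the phospholipase C arm that the PTH receptor also uses, was lower, with 136, 136 and 124 against 44.1 and 26.6, a log2 fold change of -1.90 (SE 0.23, adjusted p = 0.00081). Gnai3 (0.40, SE 0.13, adjusted p = 0.0374) and Slc9a3r1, a scaffold that binds the receptor (-0.73, SE 0.20, adjusted p = 0.0211), stayed under the fold threshold. The call of Gnb1 (1.004) was lost without Dlx5 replicate 1 (0.9998) or 2 (0.97), and that of Gnai1 without Fgfr3 replicate 2 (0.90). Gng2 did not pass the filter when either Fgfr3CE-E12.5 library was left out. A test of a change over 2-fold (glmTreat) called 4 genes of this list higher in Fgfr3CE-E12.5 cells and 1 in Dlx5CE-E12.5 cells.

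Adenylyl cyclases make cAMP. Of 9 genes 6 were tested, 2 of which were called higher in Dlx5CE-E12.5 cells and 0 in Fgfr3CE-E12.5 cells, by edgeR as by DESeq2. The median was 0.07, and 0.62 with no filter on low counts. With higher values in Fgfr3CE-E12.5 cells, 3 genes (Adcy2, Adcy3 and Adcy7) had an adjusted p under 0.05 by edgeR and missed only the fold threshold. Adcy9 had 34.4, 49.5 and 54.2 normalized CPM against 11.8 and 8.02, a log2 fold change of -2.22 (SE 0.28, adjusted p = 0.000939). Adcy6 had 34.6, 43.8 and 42.5 against 13.3 and 12.1, a log2 fold change of -1.67 (SE 0.19, adjusted p = 0.000553). Neither gene overlapped between the groups. Adcy9 lay under a CPM of 10 in Fgfr3 replicate 3, so it passed the filter only with Dlx5CE-E12.5 libraries counted. Adcy2 had 47.8 to 63.7 against 127 and 87.7, a log2 fold change of 0.92 (SE 0.20, adjusted p = 0.00946), just under the fold threshold. Adcy3 had a log2 fold change of 0.70 (SE 0.14, adjusted p = 0.0062), and 22.1% of its exonic length overlapped Cenpo on the opposite strand. A cyclase passed the rule when a library was left out, Adcy2 without Dlx5 replicate 3 (1.003) or Fgfr3 replicate 3 (1.22), and Adcy7 without Fgfr3 replicate 2 (1.15).

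Beyond the members, 7 of 14 phosphodiesterase genes were tested, of which 2 were higher in Fgfr3CE-E12.5 cells and 3 in Dlx5CE-E12.5 cells (median -0.72). With no filter on low counts the median of all 14 was -0.23 and 3 were called in each direction, and with the length trend removed the median was -0.26. Pde1a, the remaining called gene (-1.04), lost its call without Dlx5 replicate 1 (-0.97) or Fgfr3 replicate 3 (-0.62). Pde2a, which cGMP activates, had 105 to 122 normalized CPM against 16.6 and 21.9, a log2 fold change of -2.59 (SE 0.18, adjusted p = 9.8e-05), but 64.3% of its exonic length overlapped Gm45837, which makes its count uncertain. Pde3a had 13.3 to 19.8 against 5.56 and 4.88, a log2 fold change of -1.62 (SE 0.27, adjusted p = 0.00289). In the other direction the cAMP-specific Pde8a had 7.45 to 11.9 against 28.7 and 17.0, a log2 fold change of 1.24 (SE 0.31, adjusted p = 0.0142), and Pde7a a log2 fold change of 1.10 (SE 0.23, adjusted p = 0.00743). The call of Pde8a was lost without Fgfr3 replicate 2 (0.89), and that of Pde7a without Dlx5 replicate 3 (0.98) or Fgfr3 replicate 2 (0.97). Pde3a passed the filter only through Dlx5CE-E12.5 libraries, and Pde8a only with Fgfr3CE-E12.5 libraries counted. Pde4a, of the same family as the members, overlapped between groups with a log2 fold change of -0.20 (SE 0.22, adjusted p = 0.477), and Pde7b had -0.72 (SE 0.31, adjusted p = 0.0976).

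Of 19 genes of PKA, its anchors and Epac, 16 were tested, with 3 higher in Fgfr3CE-E12.5 cells, 5 higher in Dlx5CE-E12.5 cells and 8 not called (median 0.15, and 0.36 with no filter on low counts). Prkaca, the main catalytic subunit, had 16.2, 13.1 and 13.8 normalized CPM against 89.6 and 73.3, a log2 fold change of 2.50 (SE 0.17, adjusted p = 8.36e-05). Prkar2b, a regulatory subunit, had 19.1 to 30.3 against 119 and 87.5, a log2 fold change of 2.12 (SE 0.24, adjusted p = 0.000543). Both were higher in both Fgfr3CE-E12.5 libraries than in any Dlx5CE-E12.5 library. Prkar1a, whose promoter element is shown above, was abundant and overlapped, with 744 to 829 against 777 and 673 and a log2 fold change of -0.10 (SE 0.15, adjusted p = 0.636). Rapgef3, the cAMP-activated exchange factor Epac1, was also higher in Fgfr3CE-E12.5 cells (log2 fold change 1.23, SE 0.30, adjusted p = 0.014), a call lost without Dlx5 replicate 1 (0.98) or Fgfr3 replicate 3 (adjusted p = 0.0583). The 5 genes higher in Dlx5CE-E12.5 cells encode anchoring proteins, Akap2, Akap9, Akap11, Akap12 and Akap13, and 3 genes were called in this direction with the length trend removed. Akap1 (0.47) and Akap10 (0.56) had positive log2 fold changes and were not called. Akap12 had 206 to 247 against 72.7 and 47.5, a log2 fold change of -1.91 (SE 0.22, adjusted p = 0.000587). Akap2 had a log2 fold change of -2.60 (SE 0.22, adjusted p = 0.00018), but 84.4% of its exonic length overlapped Pakap, so its count is uncertain. Akap8, in the nucleus, had a log2 fold change of -0.51 (SE 0.14, adjusted p = 0.0189).

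Of the CREB, CRTC, class II histone deacetylase and Mef2 genes 14 of 15 were tested, with 2 higher in each lineage and 10 not called (median 0.26), near the shares over all genes of 16.4% and 13.1%. Crebbp, a coactivator that binds phosphorylated CREB, had 235, 229 and 210 normalized CPM against 65.1 and 41.4, a log2 fold change of -2.08 (SE 0.22, adjusted p = 0.000446). Crtc3 had 45.5 to 71.4 against 16.1 and 18.7, a log2 fold change of -1.75 (SE 0.23, adjusted p = 0.00107). Crtc2, of the same family, had a log2 fold change of 0.97 (SE 0.25, adjusted p = 0.0173), and it passed the rule without Dlx5 replicate 3 (1.22) or Fgfr3 replicate 2 (1.24). Hdac4, a repressor of Mef2 factors, had 14.9, 15.5 and 18.2 against 56.9 and 47.5, a log2 fold change of 1.69 (SE 0.17, adjusted p = 0.000408). Of the exonic length of Hdac4, 22.4% overlapped Gm26720 on the opposite strand. Mef2d had 25.3 to 27.5 against 64.6 and 70.1, a log2 fold change of 1.37 (SE 0.14, adjusted p = 0.000382), whereas the groups of its relative Mef2c overlapped. Creb1 lay at the fold threshold, with 74.1 to 83.6 against 46.0 and 31.6 and a log2 fold change of -1.0 (SE 0.19, adjusted p = 0.00546), and it passed the rule without Dlx5 replicate 1 (-1.03), Dlx5 replicate 3 (-1.03) or Fgfr3 replicate 2 (-1.22). Mef2a had 0.42 (SE 0.17, adjusted p = 0.0752), and with the length trend removed it passed the rule at 1.04 (adjusted p = 0.00292).

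Of the genes known to be induced by PTH or cAMP, more were called higher in the lineage with less Pth1r mRNA than in the other. Of 26 listed genes 21 were tested, with 9 higher in Dlx5CE-E12.5 cells (13.1% of all genes were), 2 higher in Fgfr3CE-E12.5 cells (16.4% of all genes were) and 10 not called. The median log2 fold change was -0.89, and -0.54 over all 26 with no filter on low counts. The list was chosen with earlier results of these data known. Its counts are therefore a description of these libraries and not an independent test. Many of the genes are immediate early genes that other stimuli also induce. The 9 were Fosb, Junb, Nr4a1, Nr4a2, Nr4a3, Per1, Rgs16, Il6 and Igf1.

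Fosb, a subunit of AP-1, had 720, 1096 and 1584 normalized CPM in Dlx5CE-E12.5 cells and 230 and 215 in the other lineage, for a log2 fold change of -2.35 (SE 0.34, adjusted p = 0.00161). Per1, a clock gene, had 40.4, 46.6 and 55.7 against 13.9 and 8.65, a log2 fold change of -2.07 (SE 0.27, adjusted p = 0.000997). In both, all Fgfr3CE-E12.5 values lay below all Dlx5CE-E12.5 values. Il6, a cytokine, had 39.5, 45.8 and 90.5 against 16.0 and 6.13, a log2 fold change of -2.41 (SE 0.53, adjusted p = 0.00893). Igf1, a growth factor that osteoblasts make in response to PTH, had 2034, 1986 and 1839 against 700 and 273, a log2 fold change of -2.01 (SE 0.39, adjusted p = 0.00542). Igf1 was 2.57 times and Il6 2.61 times as high in Fgfr3 replicate 2 as in replicate 3, so that the libraries of the same lineage differed widely. Per1, Il6 and Nr4a3 lay under a CPM of 10 in Fgfr3 replicate 3, so they passed the filter only with Dlx5CE-E12.5 libraries counted. Nr4a1, an orphan nuclear receptor, had 1470, 1158 and 2127 against 578 and 519, a log2 fold change of -1.53 (SE 0.28, adjusted p = 0.00414).

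Mmp13 and Wnt4 ran the other way. Mmp13, a collagenase of hypertrophic chondrocytes and osteoblasts, had 1909, 3139 and 2695 normalized CPM against 10225 and 10172, a log2 fold change of 1.98 (SE 0.24, adjusted p = 0.000783). Wnt4, a secreted Wnt ligand, had 10.5, 18.9 and 24.5 against 60.7 and 74.3, a log2 fold change of 1.91 (SE 0.33, adjusted p = 0.00325). Neither overlapped between groups. Tnfsf11 (RANKL), the osteoclast factor that PTH raises, had 215, 212 and 279 against 446 and 308, a log2 fold change of 0.68 (SE 0.21, adjusted p = 0.033), under the fold threshold.

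Fos and Dusp1, the most abundant of the list genes not called, had log2 fold changes of -0.71 (SE 0.24, adjusted p = 0.0441) and -0.89 (SE 0.21, adjusted p = 0.0113). Dusp1, whose full element is shown above, had 1489, 1506 and 2069 against 960 and 868 normalized CPM, without overlap. The remaining genes not called were Sik1, Ptgs2, Nfil3, Gem, Atf3, Vdr and Klf4, between -1.08 and 0.30. The count of 9 fell to 8 without Dlx5 replicate 3, where Nr4a3 was lost, and to 6 without Fgfr3 replicate 3, where Nr4a2 (-0.84), Nr4a3 (-0.90) and Rgs16 (adjusted p = 0.0523) were lost. Without Dlx5 replicate 1 it was 9, with Sik1 (-1.50) in place of Nr4a3.

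**Figure D2:**
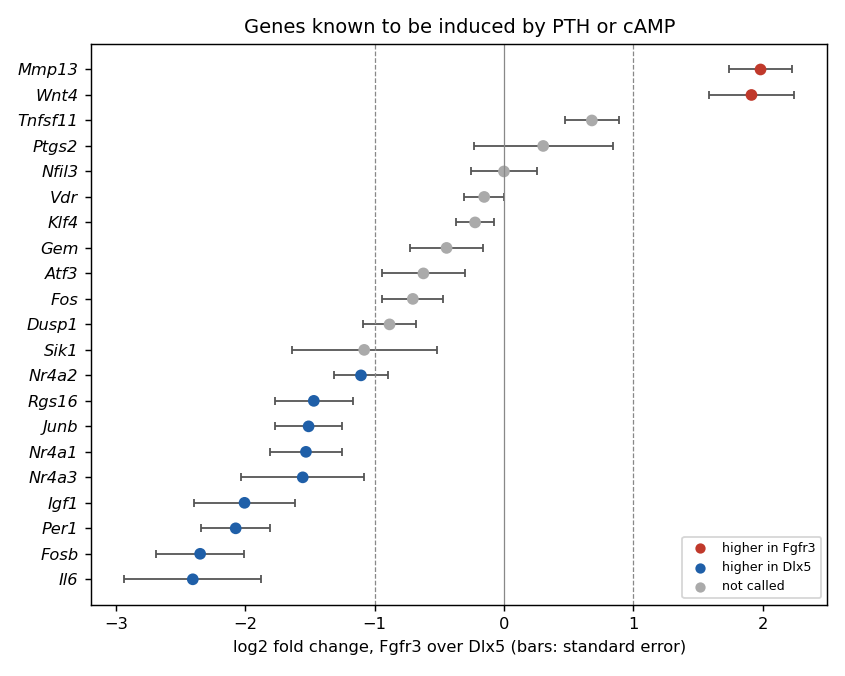
Log2 fold change (Fgfr3CE-E12.5 over Dlx5CE-E12.5) with its standard error for the 21 tested genes known to be induced by PTH or cAMP, coloured by call, with the fold threshold dashed. Mmp13 and Wnt4 lie to the right at 1.98 and 1.91, and the 9 genes called higher in Dlx5CE-E12.5 cells lie to the left, from -1.11 to -2.41.

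Genes of osteocytes, in which PTH lowers Sost, were mostly too low to test, 3 of 9 passing the filter. Dmp1, a mineralization protein, had 21.8 to 32.6 normalized CPM against 78.0 and 153, a log2 fold change of 2.17 (SE 0.31, adjusted p = 0.00154). Fam20c, a secretory pathway kinase, had 11.7 to 14.0 against 55.2 and 93.5, a log2 fold change of 2.54 (SE 0.24, adjusted p = 0.000299). Both were higher in Fgfr3 replicate 3. Phex, an endopeptidase that restrains Fgf23, had 42.0 to 70.2 against 16.3 and 6.97, a log2 fold change of -2.23 (SE 0.41, adjusted p = 0.00413).

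The sorted cells also differed in markers of other cell types. Summed normalized CPM of 15 pan-leukocyte markers was 605 to 771 in Dlx5CE-E12.5 cells, 1884 in Fgfr3 replicate 2 and 4141 in replicate 3, all 15 being higher in both Fgfr3CE-E12.5 libraries than in any other. The sum of 10 neutrophil and monocyte markers was 2937 to 3603 against 8513 and 20794, and that of 9 B lineage markers 108 to 273 against 286 and 507. The sum of 12 chondrocyte markers was 141 to 146 against 3625 and 478, with 4 to 6 of the 12 at 0 in each Dlx5CE-E12.5 library, among them Col9a1, Matn1 and Col10a1 in all 3. Of the 12, 10 were higher in both Fgfr3CE-E12.5 libraries than in any other, and Col2a1 gave most of the sums there. Sox9 was lower in both, with 131, 123 and 129 against 102 and 56.5, and gave most of the Dlx5CE-E12.5 sums. For 9 osteoblast markers the sum was 4871 to 6961 against 13212 and 16422, and for 10 stromal markers, Cxcl12 included, 35652 to 37718 against 15126 and 9897. Of the osteoblast markers 5 were higher in both Fgfr3CE-E12.5 libraries than in any other, and Runx2 was lower (141, 208 and 212 against 136 and 99.5). Of the stromal markers 7 were lower, and Foxc1 was higher (36.7, 59.2 and 54.5 against 331 and 378). Sums for 6 osteoclast markers were 199 to 205 against 261 in both, for 7 endothelial markers 26.2 to 46.1 against 34.7 and 46.1, and for 7 erythroid markers 18510 to 37811 against 14259 and 21188. Ctsk gave most of the osteoclast sums, with 184 to 188 against 183 and 177, while 4 of the 6 were higher in both Fgfr3CE-E12.5 libraries.

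Chondrocytes and osteoblasts are known to express Pth1r. The sum of chondrocyte markers was 7.58 times as high in Fgfr3 replicate 2 as in replicate 3. This ratio was 0.455 for the leukocyte sum, 0.805 for the osteoblast sum, 1.09 for Pth1r and 1.06 for Gnas. The osteoblast markers differed among themselves: 6 of the 9 were higher in replicate 3, while Alpl (1.18), Sp7 (1.28) and Runx2 (1.37) were higher in replicate 2. Among pathway genes picked here after their values were seen, Gnai2, Grk6, Ramp1, Dmp1 and Fam20c were higher in replicate 3. Prkaca (1.22), Prkar2b (1.36) and Gna12 (1.20) were higher in replicate 2. The part of these other cells in the differences of the pathway genes was not tested.

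**Figure D3:**
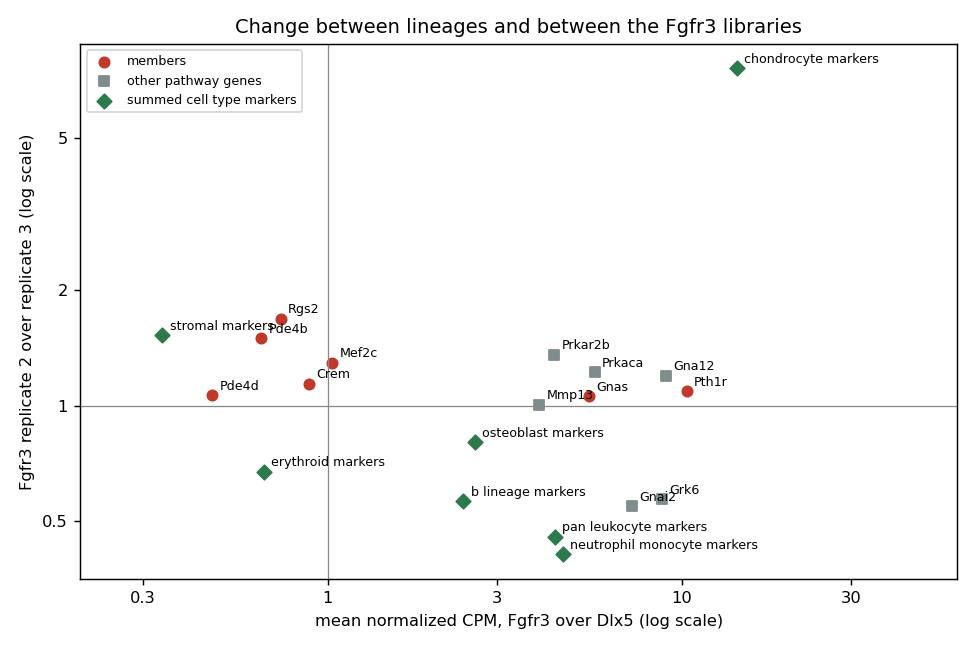
Ratio of mean normalized CPM between lineages (horizontal, log scale) against the ratio of the Fgfr3CE-E12.5 libraries, replicate 2 over 3 (vertical, log scale), for the 7 tested members, 6 other pathway genes chosen after their values were seen, and summed cell type markers. Pth1r and Gnas sit near a vertical value of 1, at 1.09 and 1.06, with the osteoblast markers at 0.805, the pan-leukocyte markers at 0.455 and the chondrocyte markers at 7.58.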

How the data were processed

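The data were bulk RNA-seq of sorted Cxcl12-GFP-high, tdTomato-positive cells, 3 libraries of Dlx5CE-E12.5 and 2 of Fgfr3CE-E12.5 cells, grouped by the sample labels. The authors aligned reads to mm10 with TopHat2 2.0.13 and Bowtie2 2.2.1, and deposited raw counts per gene. HTSeq is named in the submitters' processing notes, and the strand setting is not given in the sources used here. Deposited depth-normalized and rlog tables were not used. Total counts ranged from 22035650 to 32563758 in Dlx5CE-E12.5 and from 56355203 to 58166285 in Fgfr3CE-E12.5 libraries. At these depths 3 counts correspond to 0.0498 to 0.149 CPM, a floor that covers counting error only, since reads carried no molecular identifiers.

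Protein-coding genes and reporters that reached a CPM of 10 in 2 or more libraries (10093 genes) were analysed in edgeR 4.0.16 (R 4.3.3), with TMM normalization, the quasi-likelihood test, 1 lineage term and no covariates. Benjamini-Hochberg adjustment covered all genes tested, and calls required an adjusted p under 0.05 and an absolute log2 fold change over 1. On simulated counts, 200 of 200 changed genes were called, and 3 of 9667 unchanged genes. These counts used the trend of dispersion on level alone, with no sequencer, read length or cell mixture difference between groups. They check the procedure and do not give the error rate of the calls in these data. Standard errors came from the fold change and F statistic. Gene models and exonic lengths were from GENCODE M21 on GRCm38, and promoters from RefSeq on GRCm38.p6.

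The members and lists were chosen with earlier results of these data known. Named genes were all members, up to 4 called genes of largest change and up to 2 uncalled genes of highest mean CPM per pathway list, the 5 genes nearest Pth1r, and further genes named to complete counts after their values were seen. A gene that the rule named is not reported here. Alternatives were other scalings, filters, feature sets and tests (DESeq2 1.42.0 among them), trend removal, a replicate block and leaving out each library.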

Additional observations from a re-analysis of the deposited data

How the results depend on the processing

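Over 17 alternatives, the log2 fold change of Pth1r stayed between 3.10 and 3.55 and that of Gnas between 2.27 and 2.83, with no change of call. Pde4d ranged from -1.20 to -0.65 and missed the rule in 6 of them, among them removal of the length trend (-0.65) and scaling by library size only (-0.90). Rgs2 ranged from -0.79 to -0.05 and Pde4b from -0.87 to -0.29. Crem changed sign when scaled by library size only (0.0084), and Mef2c did so without Dlx5 replicate 3 (-0.014) or Fgfr3 replicate 2, its values without each library ranging from -0.080 to 0.28, and it was 0.69 with the length trend removed. Scaling by library size only moved the median of all genes from 0.01 to 0.19 and the share of calls higher in Fgfr3CE-E12.5 cells from 55.6% to 65.0%. It leaves out the TMM factors, which were 0.931 to 0.973 in Dlx5CE-E12.5 libraries and 1.08 in both Fgfr3CE-E12.5 libraries. Why these factors differed between the lineages was not tested.

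At an adjusted p under 0.05 alone, 2520 genes were higher in Fgfr3CE-E12.5 and 2365 in Dlx5CE-E12.5 cells. A test of a change over 2-fold (glmTreat) gave 1013 and 659, with 13 pathway genes higher in Fgfr3CE-E12.5 cells and 4 induced genes higher in Dlx5CE-E12.5 cells. Leaving out each library gave 997 to 1682 genes higher in Fgfr3CE-E12.5 cells, the lowest without Fgfr3 replicate 3, where 49.2% of calls were in that direction, as were 46.1% without Fgfr3 replicate 2. Creb1 passed the rule under 8 alternatives.

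The replicate numbers shared by the groups name different pools, and the differences between replicates 2 and 3 in the lineages correlated at only 0.0457 across genes. A fit with the replicate block gave 1681 and 1386 genes, and Pde4d was -0.86. With 2 Fgfr3CE-E12.5 libraries, leaving one out assumes that the other varies like the Dlx5CE-E12.5 libraries, and the number of libraries limits precision more than the depth.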
